A study of Drosophila melanogaster with 8 samples.

Results

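Wild-type embryos of Drosophila melanogaster collected 3–4 h after egg laying were compared, gene by gene, with wild-type embryos collected 2–3 h after egg laying. The mRNA-seq tables of both windows were joined by gene identifier, and every gene whose FPKM value had the status OK in both tables was kept. This left 15596 of the 15598 genes listed in each of the 8 tables of the series. The study followed RNA m5C methylation in maternal mRNAs, and this series profiled 5 wild-type windows and 3 windows of maternal NSUN2 knockout embryos. Wild-type embryos came from w1118 virgins (strain written WIII8 in the labels) mated with w1118 males from 2 days ahead. Knockout embryos came from NSUN2-/- virgins mated with the same males, so the mothers carried the knockout. The gene lies on the X chromosome, and the paper states that male embryos of this cross were mutant and female embryos heterozygous. Each sample pooled between 70 and 100 embryos. Within a 1 h window such a pool holds embryos of different age, and a level in the pool does not tell fewer transcribing cells from fewer transcripts per cell.

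The step from 2–3 h to 3–4 h runs from the cellularising blastoderm into gastrulation. Before it, the embryo lives largely on mRNA that the mother placed in the egg, and the zygotic genome is only beginning to be read. A set of short, early zygotic genes is active for a brief time while membranes grow between the nuclei of the syncytium. Maternal mRNAs are then degraded, the patterning genes draw the segments and the germ layers, the ventral cells fold inwards as mesoderm, and cells enter the zygotically controlled divisions in patterned domains.

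FPKM divides the sequenced fragments of a gene by its transcript length and by library size. Cufflinks gives each value an interval, which covers uncertainty inside a table only. How far separate collections would differ is not in it. The change of a gene was its log2(FPKM + 1) at 3–4 h minus that at 2–3 h. This scale understates the change of weakly expressed genes. A rise or a fall was called where the change was at least 1 and the intervals of both tables did not overlap. With 1 table on each side, no difference has a replicate check and no test was made. At FPKM from 1 to 2 the median distance from the value to a bound of the interval was 25.3% of the value at 2–3 h and 28.4% at 3–4 h, and 8.96% and 8.32% at FPKM from 10 to 20.

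Of the 15596 genes, 3255 rose (20.9%) and 907 fell (5.82%). The median change over all genes was 0.06, and it was 0.64 over the 8319 genes that reached FPKM 1 in either table, whose quartiles lay at -0.40 and 1.53. Of these 8319 genes, 39.1% rose and 10.9% fell. Called rises had a median FPKM of 2.55 at 2–3 h and 15.03 at 3–4 h, and called falls a median of 83.2 and 25.8. The falls therefore concerned abundant transcripts and the rises scarce ones. Genes that fell held 13.8% of the summed FPKM at 2–3 h and 5.27% at 3–4 h, and genes that rose held 4.35% and 19.5%. No called gene was below an FPKM of 1 in both tables, where 7277 genes lay. Intervals were separate for 8108 genes, and 3946 of these changed by less than 1.

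**Figure D1:**
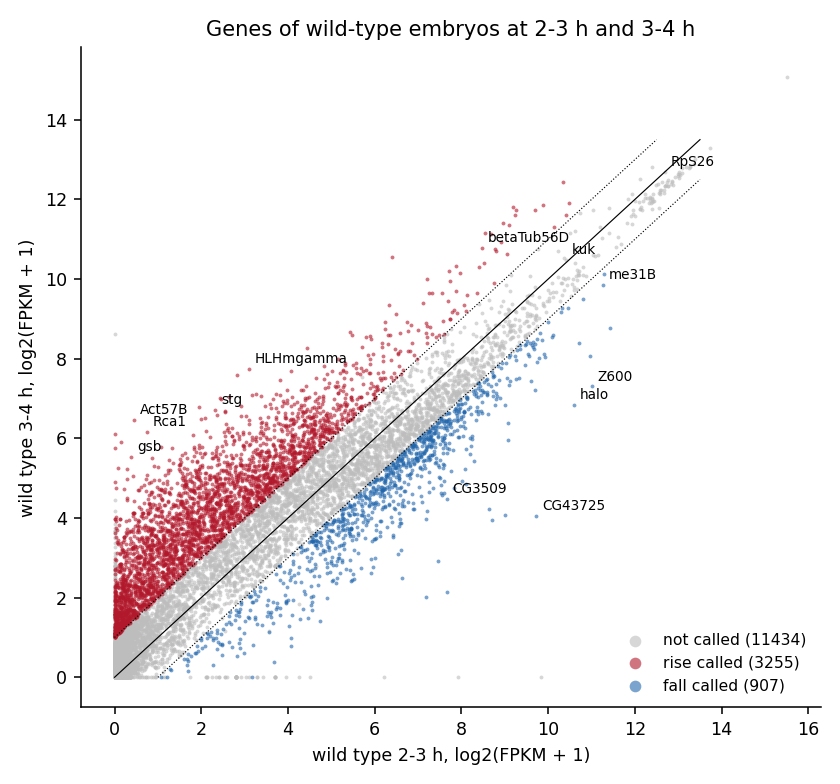
Each point is a gene, with its log2(FPKM + 1) at 2–3 h on the x axis and at 3–4 h on the y axis. The solid line marks equal values and the dotted lines a change of 1 in either direction. The 3255 rises lie mostly at low values on the x axis and the 907 falls at high ones.

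Scaling, transcript length and genes of later tissues bear on every value below. Setting the median ratio of the 6689 genes above FPKM 1 in both tables to 1 lowers the log2 ratio of every gene by 0.40 (a shift of -0.40), and setting the FPKM totals equal raises it by 0.18. Rises made up 78.2% of all calls as deposited, 61.8% under median-of-ratios scaling, 83.7% with equal totals and 51.6% under quantile normalization. The balance of rises and falls therefore depends on the scaling.

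Among genes loaded by the mother (FPKM of at least 5 at 0–0.5 h), the median change was -0.45 for transcripts up to 0.7 kb, -0.15 from 1 to 1.5 kb, 0.50 from 2 to 3 kb and 0.62 from 3 to 4 kb. The same genes had moved the other way in the preceding wild-type step from 1–2 h to 2–3 h, with medians of 0.10 at up to 0.7 kb and -0.50 from 3 to 4 kb. The step before it, from 0–0.5 h to 1–2 h, had medians of 0.04 and -0.41 in these classes. From 0–0.5 h to 3–4 h the medians of all 8 length classes lay between -0.48 and -0.33. Relative to short ones, long maternal transcripts were thus already lower at 1–2 h, lower again at 2–3 h, and not low at 3–4 h. Whether RNA quality or library preparation of the 1–2 h or 2–3 h sample differed was not tested, nor was the part of the length pattern in the single results. When changes were centred by length class, an alternative chosen after seeing the data, 3044 genes rose and 904 fell. For this, the median change of the loaded genes of a class, relative to all loaded genes, was taken off every gene of that class, loaded or not. Genes without a transcript length were left as they were. Of the called genes, 2795 rises and 707 falls were called both ways.

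**Figure D2:**
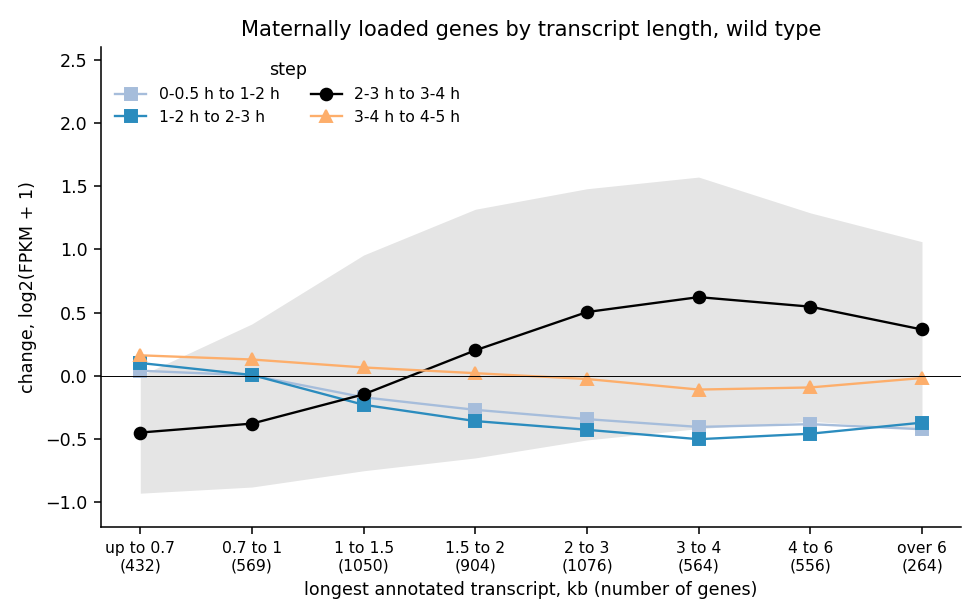
The median change of maternally loaded genes, in log2(FPKM + 1), is plotted by the length of the longest annotated transcript for the 4 wild-type steps, and the grey band spans the quartiles for the step from 2–3 h to 3–4 h. For that step the median runs from -0.45 at up to 0.7 kb to 0.62 at 3 to 4 kb, and both earlier steps run the other way.

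Contractile muscle markers were near 0 at 2–3 h, with a summed FPKM of 1.20 over 11 genes, and reached 66.9 at 3–4 h before lying at 5.02 at 4–5 h. In the knockout tables their sum lay between 0.628 and 1.30. Cuticle markers summed to 0.430, 13.1 and 3.31 in the 3 wild-type windows from 2–3 h on, with 4 of 14 at 0 at 3–4 h. Of the muscle genes 5 rose and none fell, the risers being wupA (troponin I), Mlc1 and Mlc2 (myosin light chains), up (troponin T) and Tm2 (tropomyosin). The myosin heavy chain Mhc, the defining gene of contractile muscle, was at 0.739 at 3–4 h and was not called. Eggshell markers summed to 2.21, 6.89 and 2.97 in those windows, and to 11.8 in the knockout at 2–3 h. Markers of eggshell, of gut and fat body, of testis and of differentiated neurons held at most 1 called rise per list. In all, 22 genes had FPKM of at least 5 at 3–4 h and below 1 in the other 7 tables, against 1 to 12 such genes in each of the other tables. Of the 22, 7 were short nucleolar RNAs that were not called, and leaving short RNAs out of every table gave 15 genes at 3–4 h, all of them called, and 0 in each of the other 7. The 15 included Osi6, Osi7, Mlp60A and Tm2. Whether the 3–4 h collection held older embryos was not tested, nor was its part in the rises.

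**Figure D3:**
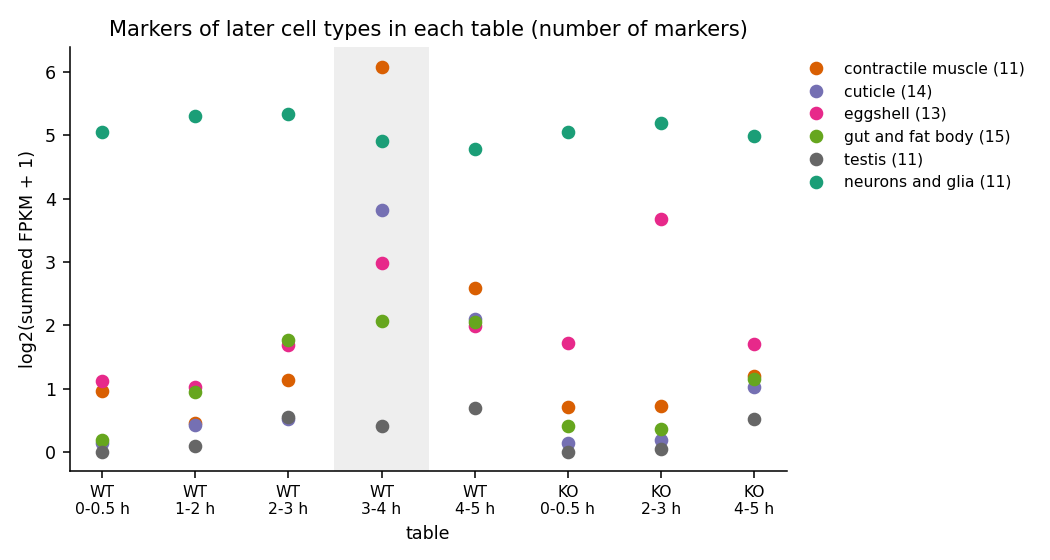
The summed FPKM of the markers of each later cell type is plotted on a log2(FPKM + 1) scale for the 8 tables, with the 3–4 h table shaded. Contractile muscle stands at 66.9 in that table and at most at 5.02 in the others, and testis markers stay below 1 in all.

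The largest falls were those of brief early zygotic genes. CG43725, an uncharacterised gene of 450 bases on arm 2L (11075513 to 11075962, BDGP5), had an FPKM of 7.86, 540.1, 844, 15.6 and 4.2 in the 5 windows from 0–0.5 h to 4–5 h. Its interval was 822 to 867 at 2–3 h and 12.50 to 18.7 at 3–4 h, a change of -5.67 and a 54.0-fold fall. The level was high in both windows before 3–4 h and low in both windows after 2–3 h, and the other genes of this group followed the same course.

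A pair of members of the Elba complex, which binds the Fab-7 chromatin boundary in the early embryo, were among the 5 largest falls. Bsg25A (now Elba1; 2L, 4683050 to 4684459) had an FPKM of 476 (1–2 h), 419 (2–3 h) and 14.6 (3–4 h), a change of -4.75. CG15634 (now Elba3; 2L, 4687513 to 4688956) stood at 350.0, 202 and 3.45 in the same windows, a change of -5.51. These genes lie close together on the chromosome. The third member, CG9883 (Elba2), named after its value was seen, went from 109 to 58.9, a change of -0.88 that was not called.

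The cellularisation list followed. It holds genes that act around the time at which the syncytium is divided into cells. Of these, 6 of 9 fell and 1 rose, with a median change of -3.30. CG34137 (dunk), which acts on the actomyosin of the furrow, had an FPKM of 396 at 2–3 h and 17.8 at 3–4 h. The actin regulator bnk (bottleneck), which sets the time at which the furrow base closes, went from 98.5 to 4.66. For halo, which directs lipid droplet transport, the 4 windows from 1–2 h on held 1188, 1539.5, 113 and 149. Here the later value did not continue the fall.

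Z600 (frühstart, 3L, 15502161 to 15502613), an inhibitor of mitosis at this stage, held the highest level of the list at 2–3 h, 2047 (1955 to 2139), and fell to 157 (145 to 169) at 3–4 h and 35.2 at 4–5 h. The nuclear envelope protein kuk (kugelkern), which elongates the nuclei, was instead at 1362 and 1428, a change of 0.07. The gene that rose was trbl (tribbles), which holds back mitosis in the invaginating mesoderm, from 9.68 to 68.9. The other large falls were CG15382, CG43184, CG15876 and CG13000, whose roles are not given here, with changes between -5.16 and -3.41. These genes had been higher at 1–2 h than at 2–3 h, unlike CG43725, halo and Z600. CG17018 (now Marf1) differed, since its FPKM was 370, 296, 91.4 and 7.58 in the 4 windows up to 3–4 h, with no gain before the fall.

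Of the 907 falls, 45 had at least doubled from 0–0.5 h to 2–3 h and 862 had not. The 45 had a median FPKM of 12.7 at 0–0.5 h and of 98.5, 15.9 and 5.32 in the windows from 2–3 h on. For the 862, it was 108, 81.6, 26.43 and 25.2, so their level fell at this step and was near its new value in the next window. The genes that gained and then fell spanned a median of 1.03 kb on the chromosome, those of the other falls 2.11 kb, and the called rises 3.09 kb. The 4157 genes that reached FPKM 1 in either table and were not called spanned a median of 1.99 kb.

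**Figure D4:**
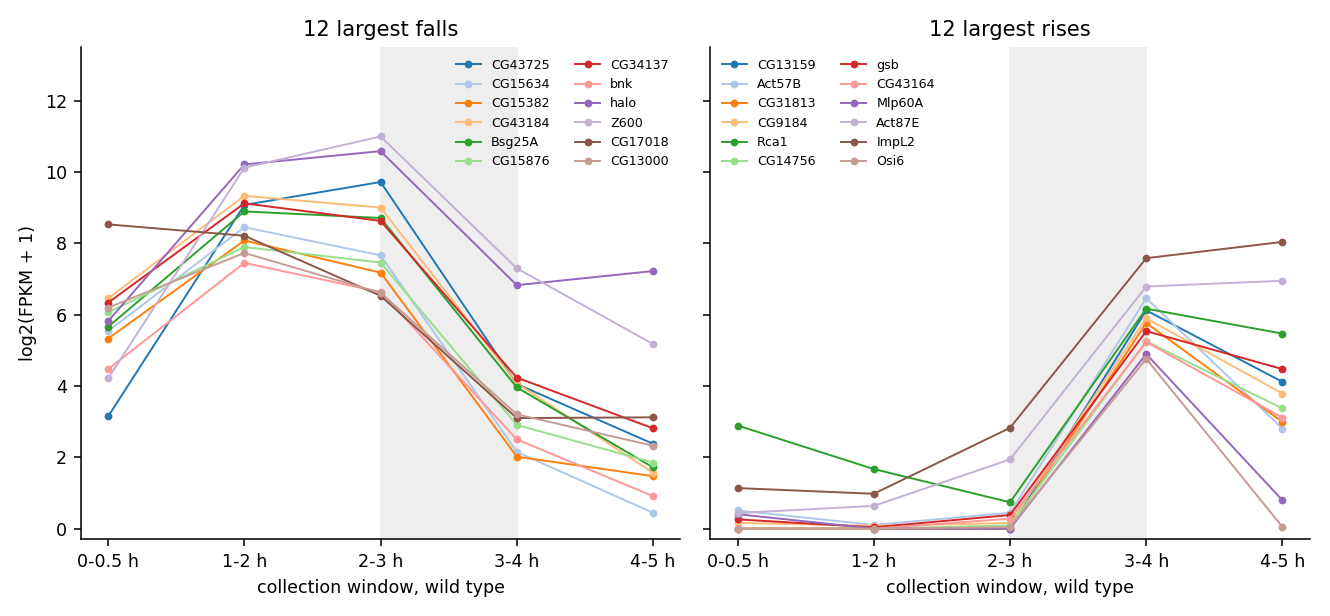
Lines give log2(FPKM + 1) in the 5 wild-type windows for the 12 genes with the largest falls (left) and the 12 with the largest rises (right) among those reaching FPKM 10, and the step from 2–3 h to 3–4 h is shaded. Of the falls, all but CG17018 peak at 1–2 h or 2–3 h. Of the rises, Act57B, Mlp60A and Osi6 come down again by 4–5 h, while ImpL2 and Act87E do not.

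Genes classed as loaded made up most of the falls. That class also holds early zygotic genes already above FPKM 5 at 0–0.5 h, such as halo (55.4) and Z600 (17.5). Of the 5662 loaded genes, 879 fell (15.5%), against 13 of the 8863 genes with FPKM below 1 at 0–0.5 h (0.147%). Most of these 8863 were below FPKM 1 in both tables, and of the 1757 that were not, 0.740% fell. Among the maternal patterning and translation regulators, 10 of 29 fell and 4 rose, with a median change of -0.54. The phosphatase twe (twine), the maternal Cdc25 of the syncytial divisions, had an FPKM of 235 at 0–0.5 h, and of 145, 14.7 and 16.1 in the windows from 2–3 h on, a change of -3.22. The terminal receptor tyrosine kinase tor (torso) went from 42.6 to 4.34, a change of -3.03. The translational repressor and destabiliser smg (Smaug) was at 524 in the egg window (0–0.5 h), 176 at 2–3 h and then 65.7. All of these were at or near their 3–4 h level in the next window.

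Of the genes that rose, 2 came from near 0, namely wbl (windbeutel), from 0.365 to 20.7, and pip (pipe), from 0.904 to 15.8, which act in the ovary to set the dorsoventral axis. The axis gene bcd (bicoid) and the germ plasm gene nos (nanos) were at 12.4 and 5.73 at 2–3 h and 6.65 and 3.49 at 3–4 h, and neither was called. The embryonic linker histone BigH1, listed as CG3509, had an FPKM of 879 at 0–0.5 h, and fell from 201 to 21.2, a change of -3.18.

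In the germ plasm and piRNA list, 14 of 26 genes fell and 4 rose, with a median change of -1.07. The piRNA factors krimp, AGO3 and mael, which silence transposons in the germ line, had 33.3, 191 and 152 at 2–3 h and 4.16, 29.7 and 24.3 at 3–4 h. At 0–0.5 h these 3 had stood at 91.3, 149 and 178. The 4 that rose were vls, CycB, Hsp83 and cuff. CycB (cyclin B) and Hsp83 (an Hsp90 chaperone), whose mRNAs are held in the pole plasm but are present in the whole embryo, had FPKM values of 138 and 42.6 at 2–3 h and of 670.1 and 180.1 at 3–4 h.

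The mRNA decay list had 7 of 20 rises, 6 falls and a median change of 0.13. Its share of rises, 35%, was near the 39.1% of all genes reaching FPKM 1. Its share of falls, 30%, was above the 10.9% of those genes. The median became -0.26 under median-of-ratios scaling, -0.09 under quantile normalization and -0.13 with length centring. The RNA helicase me31B, a repressor of maternal mRNA, was the most abundant member at 2–3 h and fell from 2439 to 918, a change of -1.41. The deadenylase twin (CCR4) rose from 4.02 to 46.2 and the nonsense decay factor Upf1 from 0.692 to 10.3. At 0–0.5 h the values of twin and Upf1 were 17.7 and 2.49, so that both were lower at 2–3 h than at egg laying.

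Among the largest rises, many genes were near 0 in all windows before 3–4 h. CG13159 and CG31813 (nur) were listed at 0 in the 3 windows before, and had an FPKM of 68.6 (61.2 to 76.1) and 53.4 (49.1 to 57.8) at 3–4 h. At 4–5 h they stood at 16.3 and 6.94. The muscle actin Act57B (2R, 16831533 to 16833945) went from 0.361 at 2–3 h to 87.2 at 3–4 h and 5.99 at 4–5 h, a change of 6.02, and the muscle LIM protein Mlp60A was listed at 0, then at 28.8 and 0.734. Osi6, of the Osiris family of cuticle-forming epithelia, was at 0.0293, 26.2 and 0.0333. These 3 genes share their course with the muscle and cuticle markers above. In actin genes, whose coding sequences are close to identical, unique alignments may split reads unevenly.

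Act87E, ImpL2 and nimC4 held their level. The muscle actin Act87E was at 2.84, 109.8 and 123 in the windows from 2–3 h on, and ImpL2 (3L, 4224006 to 4236147), a secreted insulin-binding protein, at 6.10, 191 and 263. The engulfment receptor nimC4 rose from 4.39 to 128.0 and was at 142 at 4–5 h. The segment polarity factor gsb (gooseberry) went from 0.302 (0.120 to 0.484) to 45.5 (43.3 to 47.8), a change of 5.16, and was at 21.2 at 4–5 h. CG9184, CG14756, CG43164 and CG12011, with changes between 4.41 and 5.74 and lower values at 4–5 h (12.8, 9.35, 7.66 and 93.2) than at 3–4 h (58.7, 37.1, 36.6 and 130.3), complete the genes with the largest rises beside Rca1 and vig2, which are described with the maternal transcripts below.

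Of 14 gap and head gap genes, which lay out broad regions of the embryo, 6 rose and none fell, with a median change of 0.91 that was -0.08 under quantile normalization. All 14 reached FPKM 1, and their share of rises, 42.9%, was near the 39.1% of all genes that did. The Sox factor D (Dichaete) had an FPKM of 10.7, 91.2 and 40.5 in the windows from 2–3 h on, and gt (giant) 6.65, 31.3 and 11.03. The zinc finger factor hb (hunchback), loaded at 10.3, went from 4.57 to 21.7. Kr (Krüppel), the most abundant of the list, was at 102 and 92.9, a change of -0.14.

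Among pair-rule genes, which pattern every other segment, 9 of 11 rose and none fell, with a median change of 1.69. The fork head factor slp2 (sloppy paired 2) rose from 0.658 to 30.4, and slp1 from 58.7 to 199.7. For odd (odd-skipped) the same 3 windows held 10.04, 73.8 and 26.8, and for prd (paired) 2.42, 15.4 and 1.129. These came down again, whereas drm (drumstick) was at 16.7, 116 and 173. The long-known genes eve, ftz and h, named after their values were seen, had 2.41, 29.4 and 7.85 at 2–3 h and 8.30, 91.9 and 27.6 at 3–4 h. With the 4–5 h table in place of the 3–4 h table, the median of the list was -0.14.

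Segment polarity genes fix the borders of each segment, and 11 of 14 rose and none fell, with a median of 1.74. The ligand wg (wingless) went from 1.32 to 27.8, the T-box factor mid (midline) from 0.276 to 9.13 and en (engrailed) from 0.157 to 7.19. The Hedgehog effector ci was at 83.1 and 141 and was not called. Of the 8 Hox genes, which assign identity along the body axis, 7 rose. Abd-B went from 0.709 to 21.4, Antp from 2.07 to 19.9, abd-A from 2.40 to 16.4 and Scr from 0.171 to 3.98. All 4 were at similar levels at 4–5 h, between 4.18 and 21.5. The gene units of Abd-B and Antp span 45.0 and 103 kb.

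Germ layer genes rose as well. In the mesoderm and FGF list, 14 of 20 rose and none fell, with a median change of 2.00, while mir-1 and lbe were listed at 0 in both tables. The basic helix-loop-helix factor twi (twist), which specifies the mesoderm, had an FPKM of 4.199, 7.599, 86.5 and 20.2 in the windows from 1–2 h on, a change of 3.35. Its partner sna (snail) was at 21.5, 131 and 90.9 from 2–3 h on. Known targets of twi rose in the same step, with tin (tinman) going from 0.350 to 32.1, Mef2 from 0.527 to 15.6 and the FGF receptor adaptor stumps from 3.02 to 39.0. Mef2 had been at 3.54 at 0–0.5 h. Whether these rises depended on twi was not tested. The Wnt family member wntD was at 23.8, 121 and 233.

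Cell shape change and intercalation genes numbered 12, of which 6 rose and 1 fell, with a median of 0.93. All genes reaching FPKM 1 had 39.1% of rises and a median of 0.64. The receptor Toll-6, which orients cell intercalation in the germ band, went from 0.229 to 30.8, Traf4, which acts on adherens junctions in the mesoderm, from 9.41 to 133, and 18w (Toll-2) from 2.58 to 11.9. The fall was that of cta (concertina), a maternal G protein subunit for apical constriction, from 81.3 to 22.5. The signal fog (folded gastrulation), a marker of gastrulation, was at 15.6 and 19.9 and was not called.

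Dpp/BMP signalling patterns the dorsal side of the embryo, and 16 of 29 of its genes rose and 6 fell, with a median of 1.04. The ligand scw (screw) fell from 15.7 to 0.730, having been at 77.4 at 1–2 h, a change of -3.27. Among the rises were pnr (pannier) from 0.349 to 16.4, Doc2 from 2.76 to 33.2 and the peptidase Ance from 28.0 to 153. The type I receptor tkv went from 40.7 to 84.8, a change of 1.04 that was not called with length centring.

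In the neuroectoderm, 21 of 26 genes rose and none fell, with a median of 1.71. The neuroblast factor wor (worniu) went from 1.11 to 25.1, the early neuronal gene nerfin-1 from 0.210 to 11.5, pdm2 from 6.85 to 68.2 and ase (asense) from 0.430 to 11.6. The proneural gene l(1)sc was the most abundant at 161, from 38.0. Levels of wor, pdm2, ase and l(1)sc were higher again at 4–5 h, at 36.1, 112, 14.9 and 301.

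The E(spl) and Bearded genes, targets of Notch that lie in gene complexes, had the highest median of the lists, 2.56, with 14 of 16 rises and no fall. HLHmgamma (E(spl)mgamma-HLH; 3R, 21825573 to 21826483) had an FPKM of 0.264, 7.54, 213 and 453 in the windows from 1–2 h to 4–5 h, and HLHmdelta 0.232, 2.99, 87.9 and 179. HLHm3 and HLHmbeta, repressors of the same family, went from 0.454 to 24.9 and from 1.86 to 43.7. The Bearded family genes Tom and Brd were already at 865 and 280 at 2–3 h and stood at 1721 and 770 at 3–4 h, and of these Brd was called. Transcripts of this list are short, with a median of 934 bases, and with length centring the median change was 3.07 and 15 of 16 rose.

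EGF receptor signalling had 8 of 12 rises and no fall, with a median of 1.44. Its ETS-domain effectors are pnt (pointed), the activator, which went from 0.678 to 32.8, and aop (yan), the repressor, which went from 20.5 to 79.7. The receptor Egfr rose from 2.496 to 25.2, and the ligand spi (spitz) from 154 to 445. The feedback inhibitor sty (sprouty) rose from 0.965 to 6.32. Selectors of gut, salivary gland, trachea and blood rose in 10 of 13 cases, with a median of 1.52. The secretory factor CrebA went from 0.674 to 17.4, the salivary factor sage from 0.477 to 6.27, the tracheal factor vvl from 0.208 to 3.99 and the GATA factor srp (serpent) from 7.58 to 21.6.

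JAK/STAT genes, sex and dosage genes and activators of the zygotic genome moved less as groups. In JAK/STAT, 2 of 8 rose and 1 fell, with a median of 0.50 that was -0.19 under quantile normalization. The transcription factor Stat92E, loaded at 195, fell from 153 to 62.0. The ligand os (unpaired) was at 1.46 and 4.43. Sex determination and dosage compensation genes had 7 of 19 rises and no fall, with a median of 0.47. Their share of rises, 36.8%, was near the 39.1% of all genes reaching FPKM 1. The autosomal denominator dpn (deadpan), also a neuroblast factor, rose from 3.61 to 33.0, and the dosage compensation RNAs roX1 and roX2 were at 173 and 0.435 at 2–3 h and 215 and 3.79 at 3–4 h. Of 9 activators, Trl (GAGA factor) rose from 12.1 to 92.5, and CG1832 (Clamp) was at 235 and 130.2 and was not called. The median of the activators was 0.15, and it was below 0 under median-of-ratios scaling (-0.23) and quantile normalization (-0.62).

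Some of the rises were of loaded genes that were lower at 2–3 h than at 0–0.5 h. Of the 3255 rises, 1657 were of loaded genes, and 1011 of these (31.1% of the rises) were at 2–3 h at 0.5 times their level at 0–0.5 h or less. The 2–3 h value enters both the decline and the rise, so the decline and the rise are not separate observations. How many loaded genes declined as far without a called rise was not counted. Over the 1011 genes the median FPKM was 19.0, 9.32, 4.08, 20.9 and 18 over the 5 windows. The 985 rises of genes not loaded had medians of 0.0620, 0.115, 0.334, 4.02 and 2.98 in the same windows. Loss before 2–3 h among loaded genes went with transcript length, as given above, and its part in these rises was not tested. With length centring, 1515 loaded genes rose.

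The phosphatase stg (string), which starts each of the zygotic divisions, had an FPKM of 51.9, 22.2, 3.99, 104 and 69.2 over the 5 windows, a change of 4.39. Its maternal counterpart twe fell in the same step. Rca1 (2L, 6852324 to 6853876), an inhibitor of the anaphase-promoting complex, was at 6.42, 2.18, 0.669 (0.389 to 0.949), 71.0 (68.1 to 73.9) and 43.3, a change of 5.43. The gene vig2 was at 32.5, 14.7, 4.45, 126 and 58.2. For these genes the level at 3–4 h was above that at egg laying.

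The cell cycle list as a whole had 25 of 41 rises and 3 falls, with a median of 1.37. The replicative helicase subunit Mcm2 went from 14.8 to 147, and rap (fizzy-related), an activator of the anaphase-promoting complex that ends mitotic cycles, from 4.03 to 45.8. RnrS (ribonucleotide reductase) rose from 234 to 837. The replication clamp PCNA (listed as mus209) was at 751 and 772. The falls were Z600, twe and CycD. With length centring 20 rose and 5 fell.

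Genes of protein synthesis and breakdown divided by complex. Of 21 aminoacyl-tRNA synthetases, which charge tRNAs with amino acids, 15 rose and 1 fell, with a median of 1.72. Genes named from here to the end of this paragraph were chosen after their values were seen. Aats-glupro went from 1.03 to 29.9 and Aats-tyr from 18.7 to 110.1, while Aats-ile fell from 153 to 47.2. The initiation factors eIF6 and eIF-2gamma went from 2.203 to 44.2 and from 13.1 to 135, within a list of 35 that held 12 rises and 1 fall. The share of rises in that list, 34.3%, was near the 39.1% of all genes reaching FPKM 1. In the proteasome list of 41 genes, 11 rose and 8 fell. The regulatory particle, which recognises and unfolds substrates, had 11 of 19 rises and 1 fall, with Rpn1 going from 1.501 to 53.1 and Rpt3 from 3.63 to 64.3. The catalytic core had 7 of 22 falls and no rise, with 10 of the 22 below FPKM 1 in both tables. Pros25 fell from 974 to 265 and Prosbeta3 from 860.0 to 239. The summed FPKM was 1652 at 2–3 h and 2164 at 3–4 h for the regulatory particle and 7605 and 3201 for the core. With length centring, 11 genes of the regulatory particle rose and 5 of the core fell.

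Cytoplasmic ribosomal proteins, the most abundant class, had a median change of -0.30 over 93 genes, and 18 rose and none fell. Their share of rises, 19.4%, was near the 20.9% of all genes and below the 39.1% of genes reaching FPKM 1. With length centring the median was 0.18 and 22 rose. RpL3 went from 369 to 2285 and RpL6 from 585 to 3592. RpS26, RpS4 and RpL26 were the most abundant of all genes with a change within 0.1 of 0, at 6650.1, 4788 and 4098 at 2–3 h and 6569, 4492 and 3988 at 3–4 h. Genes of the ribosome thus differed among themselves in their change, as did those of the proteasome. Mitochondrial ribosomal proteins had 13 of 72 rises (18.1%), 4 falls (5.56%) and a median of -0.31, which was 0.14 with length centring. These shares were near the 20.9% and 5.82% of all genes. The 13 mRNAs of the mitochondrial genome had a median of -0.63, and none was called. Of 115 histone genes, 15 fell and 1 rose, but most are near-identical copies whose mRNAs carry no poly(A) tail, so that unique alignments in poly(A) libraries leave their values uncertain. The rise was of the polyadenylated variant His3.3A, from 212 to 995.

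Chromatin regulators had 11 of 22 rises and 2 falls, with a median of 1.01. The histone H3 lysine 9 methyltransferase egg (eggless) went from 5.80 to 61.2, the Brahma complex subunit mor (moira) from 9.27 to 90.1 and the Polycomb repressive complex subunit Su(z)12 from 2.48 to 19.7. The most abundant members, His2Av and the gene of HP1, were at 4094 and 1561 at 2–3 h and 3085 and 1361 at 3–4 h. In the RNA methylation list, 8 of 12 rose and 1 fell, with a median of 1.17. The m6A writer subunit fl(2)d went from 14.2 to 90.02 and the m6A methyltransferase Ime4 (Mettl3) from 19.3 to 55.0. Nsun2, the m5C methyltransferase that the study removed from the mother, was at 2.71 (2.25 to 3.16) at 2–3 h and 12.7 (11.6 to 13.8) at 3–4 h, a change of 1.89. At 4–5 h it was at 6.59, so that the 3–4 h table held its highest wild-type level.

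Chaperones had 6 of 17 rises and 2 falls, with a median of 0.11. The mitochondrial chaperone Hsc70-5 went from 1.94 to 46.5 and the constitutive Hsc70-4 from 206 to 695, while the small heat shock protein Hsp22 fell from 68.7 to 14.1. In the cytoskeleton list, 10 of 24 rose and none fell. The shares of rises, 35.3% for chaperones and 41.7% for the cytoskeleton list, were near the 39.1% of all genes reaching FPKM 1. The tubulin betaTub56D rose from 354 to 1762, and betaTub60D, a tubulin of muscle and chordotonal cells, from 0.0680 to 13.1. The actin-severing factor tsr (cofilin) was the most abundant, at 5400.2 and 3465, and was not called.

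Adhesion and polarity genes had 16 of 29 rises and 2 falls, with a median of 1.25. Cell adhesion proteins of the forming epithelia rose from near 0, with Fas3 going from 0.0991 to 14.7 and Fas2 from 0.350 to 16.6. The laminin chains LanA and LanB2, which form basement membrane, went from 1.15 to 24.9 and from 2.11 to 29.3. The catenin arm (armadillo) rose from 27.1 to 102, while its partner alpha-Cat was at 369 and 231. Ecdysone genes had 5 of 17 rises and 1 fall. The steroid hydroxylase sad rose from 0.426 to 8.70, spo and dib, earlier enzymes of the same pathway, were at 113 and 50.3 at 2–3 h and 89.1 and 56.4 at 3–4 h, and the nuclear receptor ftz-f1 fell from 16.4 to 2.82.

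**Figure D5:**
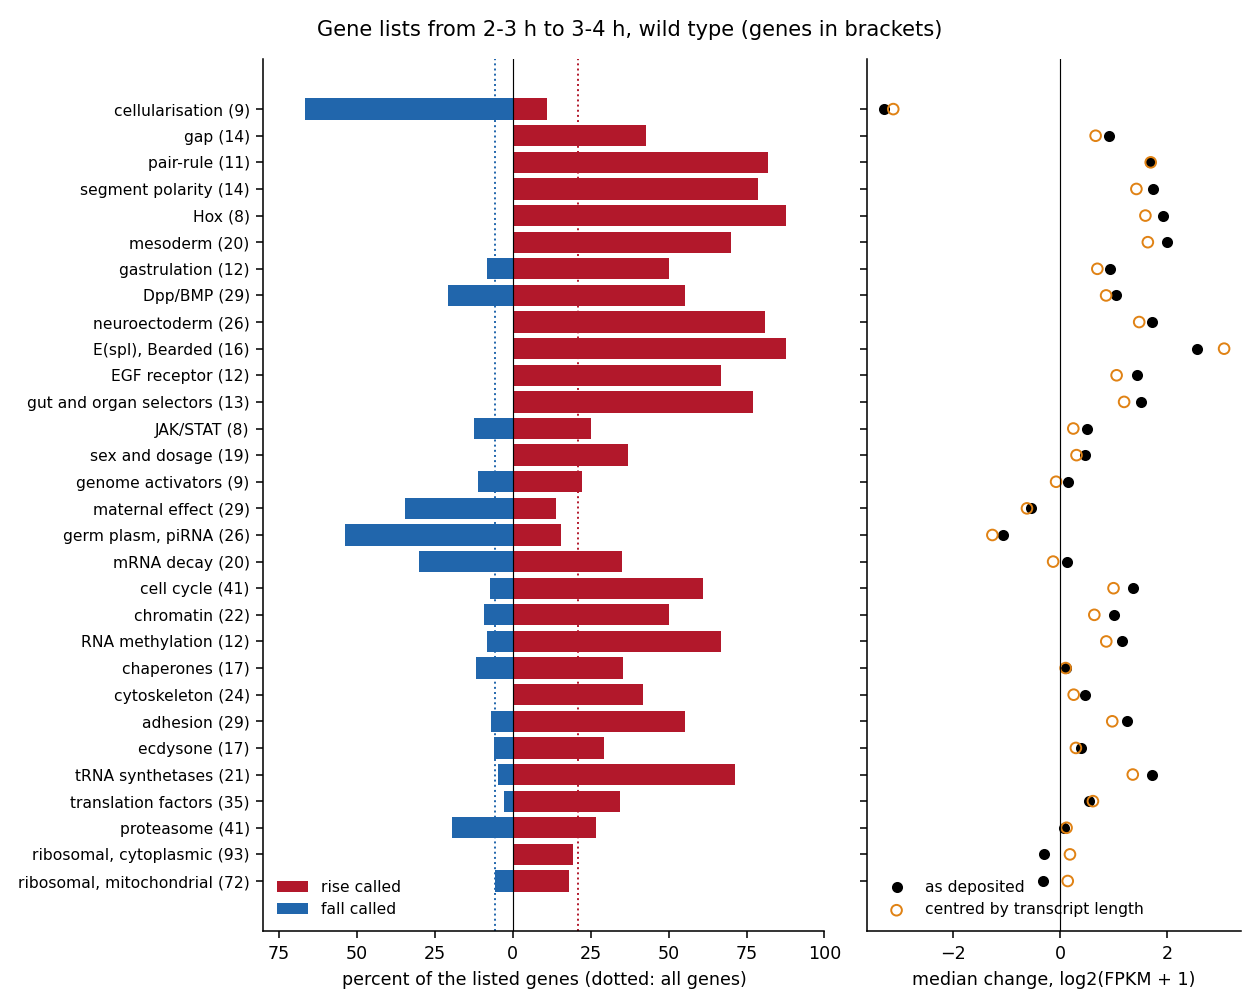
For each list, bars give the percent of its genes with a rise (right) or a fall (left) called, with dotted lines at the 20.9% and 5.82% of all genes, and points give the median change as deposited and with length centring. The cellularisation and germ plasm lists have the lowest medians (-3.30 and -1.07), and E(spl) and Bearded genes the highest (2.56).

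Rises were called for 29.3% of loaded genes, for 57.2% of the 1071 genes with low load (FPKM from 1 to 5 at 0–0.5 h) and for 11.1% of genes not loaded. Genes not loaded are mostly silent in both tables, and among the 1757 of them with FPKM of at least 1 in either table, 56.1% rose. Among genes not loaded that passed that floor, 39.6% of those spanning under 2 kb rose, against 67.5% at 2 to 5 kb and 87.5% of the 48 over 50 kb. A gene passes that floor through either table, so these shares describe the genes that passed and not all genes of their class. Of all genes not loaded, 5.70% rose under 2 kb, 17.6% at 2 to 5 kb and 23.5% over 50 kb. The classes from 5 to 50 kb lay between 21.9% and 23.9%. With length centring, the shares were 7.33% under 2 kb, 15.9% at 2 to 5 kb and 19.6% over 50 kb.

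Chromosome 4, the small and largely heterochromatic autosome, had the highest share of falls of the main chromosome arms. Of its 93 genes, 23 fell (24.7%) and 9 rose (9.68%), while the X and the arms of chromosomes 2 and 3 had between 4.37% and 7.27% of falls and between 18.7% and 24.7% of rises. All 23 falls were of loaded genes, of which chromosome 4 has 48, so that 47.9% of these fell, against 12.1% to 18.7% of loaded genes on the other arms. With length centring 24 of the 48 fell. Among them, named after their values were seen, Pur-alpha went from 63.5 to 10.03, pho (pleiohomeotic, a Polycomb group DNA-binding protein) from 236 to 72.6 and gw (gawky, a microRNA effector) from 295 to 97.5.

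The knockout tables share no table with this comparison, but their windows, 2–3 h and 4–5 h, and their genotype differ from it. From knockout 2–3 h to 4–5 h, 1124 of 15595 genes rose (7.21%) and 941 fell (6.03%). Of the 3255 wild-type rises, 770 rose in the knockout (23.7% of the wild-type rises and 68.5% of the knockout rises), with a median knockout change of 0.15. Another 225 of them fell there (6.91% of the wild-type rises and 23.9% of the knockout falls), a share near the 6.03% of all genes. Of the 907 wild-type falls, 906 were measured in the knockout and 183 of them fell (20.2% of these and 19.4% of the knockout falls), with a median of -0.52. Of the 906, 1 rose. Length moved the other way in the knockout step, with medians of 0.09 for loaded transcripts up to 0.7 kb and -0.39 from 3 to 4 kb.

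The lists differed in the same knockout tables. In the cellularisation list 7 of 9 fell, with Z600 going from 249 to 17.9 and bnk from 80.2 to 0.336. Of the E(spl) and Bearded genes 13 of 16 rose, with HLHmgamma going from 3.80 to 178. Of 41 cell cycle genes 2 rose and 2 fell, and of 21 tRNA synthetases none rose and 5 fell, with median changes of -0.04 and -0.55. Over all genes 7.21% rose in this step, so a low count of rises was not particular to these lists. In the knockout, stg was at 30.5 and 39.6 and Rca1 at 33.1 and 28.4, and neither table had the low value that wild-type embryos had at 2–3 h. None of the 11 contractile muscle genes was called, and Act57B was at 2.84 and 0.0807.

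Genes named by a CR symbol and short RNAs were set apart, since short and overlapping transcripts are poorly measured in poly(A) libraries. Of the 981 short RNA genes, 1 rose and 2 fell, and 830 were listed at 0 in both tables. The largest called rise among these kinds was that of CR31144, from 8.60 to 137, and the largest fall that of CR43837, from 22.5 to 2.72. Both overlap another listed gene. Close to the threshold, among genes reaching FPKM 100, Mlf (334 and 166) fell and Pp2A-29B (57.7 and 116) rose, each just past a change of 1, while Mad1 (183 and 91.1) and Tom (0.99) were just short of it and not called.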

How the data were processed

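Poly(A) mRNA of pooled embryos was sequenced as strand-specific read pairs, with 1 deposited table per condition. The authors demultiplexed reads with bcl2fastq 2.17, cut adapters with cutadapt 1.13, mapped with TopHat2 to BDGP5 keeping unique alignments, and deposited FPKM values with interval bounds from Cufflinks. The study's methods state that replicate values were averaged, and whether a table is 1 library or a pool is not given in the sources used here. FPKM values are relative within a library, so abundant genes that change shift the rest. No fragment counts were in hand, so depth is unknown. Spike-in RNAs were added per the labels, and spike-in scaling was not used here.

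Genes were joined by identifier. The change was computed with a pseudocount of 1 and called at 1 or more with separate intervals. Transcript lengths came from the BDGP6 annotation by gene ID (14919 genes, 95.7%), with no coordinates used. Coordinates are those of the tables, counted from 1, and current symbols came from a reference table that matched 14921 IDs. Python 3.11.15, numpy 2.4.6, pandas 2.3.3, matplotlib 3.10.9 and scipy 1.17.1 served for the computation. The calls were tested on simulated data.

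The comparison, its 31 gene lists and 8 classes were chosen with earlier results of these data known. After values were seen, Z600 was entered under its synonym frs, an entry that belonged to another gene was taken out of the cellularisation list, Prosap, a scaffold gene with a similar name, was taken out of the proteasome list, and that list was divided by subunit. Named genes were the 12 largest called changes each way with FPKM of at least 10, leaving out short RNAs and CR symbols, the 6 largest each way with FPKM of at least 100, up to 4 called and 2 most abundant members of each list, the 5 most abundant genes with a change within 0.1 of 0, and Nsun2. Genes outside this rule were chosen after their values were seen. Alternatives were other pseudocounts, filters, scalings, interval rules and thresholds, and the 4–5 h table.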

Additional observations from a re-analysis of the deposited data

How the results depend on the processing

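Rises numbered 3255 and falls 907 as reported. Counts of rises from 2423 to 4541 came with a pseudocount of 0.1 (4541), equal FPKM totals, median-of-ratios scaling, no interval rule, intervals of double width, the 4–5 h table as the later side, or no short RNAs. They were fewer with a pseudocount of 5 (1954), a mean FPKM of at least 5 (2135), quantile normalization (1737) and a change of at least 2 (1253). Falls were more under median-of-ratios scaling (1499) and quantile normalization (1628) and fewer at a change of at least 2 (175). The median change of 0.06 was 0.25 with a pseudocount of 0.1, 0.013 with 5, 0.64 with FPKM of at least 1 in either table, 0.37 with a mean of at least 5, 0.10 without short RNAs, 0 under median-of-ratios scaling, 0.10 with equal totals, -0.069 under quantile normalization and 0.021 with the 4–5 h table. The cause was not tested. Called against both later tables, an alternative chosen after seeing the data, 2413 genes rose and 783 fell.

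List medians turned sign as follows, counting those that ended at least 0.1 past 0. At a mean FPKM of at least 5, those of activators, ecdysone genes and neuron markers were -0.33, -0.34 and -0.33. Under median-of-ratios scaling, activators were at -0.23 and the decay list at -0.26. Under quantile normalization, JAK/STAT was at -0.19 and activators at -0.62, and those that turned by less were gap (-0.08), the decay list (-0.09), proteasome (-0.015), neuron markers (-0.04) and eggshell markers (-0.07). With the 4–5 h table, pair-rule genes were at -0.14 and activators at -0.30. With length centring, chosen after seeing the data, the decay list was at -0.13 and cytoplasmic and mitochondrial ribosomal proteins at 0.18 and 0.14. Of the 181 genes taken through the alternatives, prd was the called gene that turned sign by at least 0.1, at -0.68 with the 4–5 h table. Uncalled genes did so under median-of-ratios scaling (kuk -0.33, CG1240 -0.30, mus209 -0.36, dib -0.23), equal totals (RpS26 0.16, RpL26 0.14), quantile normalization (RpS26 0.32, RpS4 0.18, RpL26 0.22, Kr 0.12, hop -0.43, CG42358 0.12, Vm34Ca -0.25, Acp36DE -0.30), the 4–5 h table (kuk -0.27, Kr 0.29, hop -0.13, CG42358 0.14, Vm34Ca -0.36) and length centring (RpS4 0.18, RpL26 0.24, kuk -0.31, roX1 -0.10, CG42358 0.17). No paired analysis was possible because each condition has 1 table.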
